A study of Mus musculus with 6 samples.

Results

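The features described here are 4 entries of a long non-coding RNA (lncRNA) table on mouse chromosome 5, ENSMUST00000201944, MSTRG.44237.1, MSTRG.44237.2 and NONMMUT119339.1. They were taken by identifier from 24817 features, and they had been picked because they were lower in LPS_ES_PMMA in the comparison below, so their change is a description and carries no test. All 4 passed the filter on low counts. RNA was sequenced from RAW264.7 cells, a transformed mouse macrophage line, that had received lipopolysaccharide (LPS) for 24 h and then medium conditioned by bone cement. The LPS_ES_PMMA group (n = 3) had extract of polymethyl methacrylate (PMMA) cement with enoxaparin sodium, a heparin, and the LPS_PMMA group (n = 3) had extract of PMMA cement. Titles and treatment labels of the second group name PMMA, while its descriptions and table columns name LPS alone. No genetic change is named for either group, and whether replicates are separate cultures is unstated, so their spread may be technical. The time in extract was not given in the sources used here.

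Oligoadenylate synthetases (the Oas genes) are interferon-induced enzymes that sense double-stranded RNA and make short adenosine chains, which activate the ribonuclease RNase L to cut viral and cellular RNA. Oasl1 and Oasl2 are their like proteins with ubiquitin-like domains, and mouse Oasl1 is known to restrain translation of the interferon regulator Irf7. In macrophages, LPS induces such genes through type I interferon.

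At their listed positions none of the 4 features lies on an Oas gene. The submitters' processing notes name build mm10. ENSMUST00000201944 (C730045M19Rik, chromosome 5, 115039770 to 115041084, 1315 nt, 1 exon) and the assembled transcripts MSTRG.44237.1 and MSTRG.44237.2 (both 115055374 to 115060230, 396 and 391 nt) lie in introns of Sppl3, the gene of an intramembrane protease of the Golgi. NONMMUT119339.1 (120961884 to 120963019, 812 nt) is listed as antisense to an exon of Rph3a, the gene of the synaptic vesicle protein rabphilin. The strand column of the table equals the strand of the named gene for 13687 of 13687 features with a gene in GENCODE M21, so it does not give the strand of the feature. Whether counting used strand was not given in the sources used here.

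Positions of assembled transcripts in this part of chromosome 5 do not meet mm10 gene ends. Of 23 assembled intervals between 110350735 and 124598844, 0 had an end within 50 bp of an end of a protein-coding transcript at its listed position. At an offset of 138060 bp (listed minus mm10), 12 of 23 had one, and 5 had both ends met at or near this offset. No offset more than 1 kb away from it gave more than 6 with at least 1 end. The matches include MSTRG.44485.1 (1197 nt), which falls on Pebp1, a Raf kinase inhibitor gene (ENSMUST00000036951, 1240 nt). They also include MSTRG.44339.1 (1321 nt), which falls on the ribosomal protein gene Rplp0 (ENSMUST00000086519, 1358 nt). Its start met that transcript at 138032 bp and its stop at 137995 bp, the latter more than 50 bp from 138060 bp. MSTRG.44071.1 (110987845 to 110989199, 328 nt) instead matched a Chek2 transcript (ENSMUST00000200172, 328 nt) at both ends at 147866 bp. A single offset may thus not hold over the whole stretch. Among whole-transcript matches near 138060 bp the lowest in position is Rplp0, at 115697499, past the listed intervals in Sppl3 introns. Whether the offset holds at those intervals was not tested. Gene models of GRCm39 were not used here, and which assembly the offset belongs to was not tested.

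**Figure D1:**
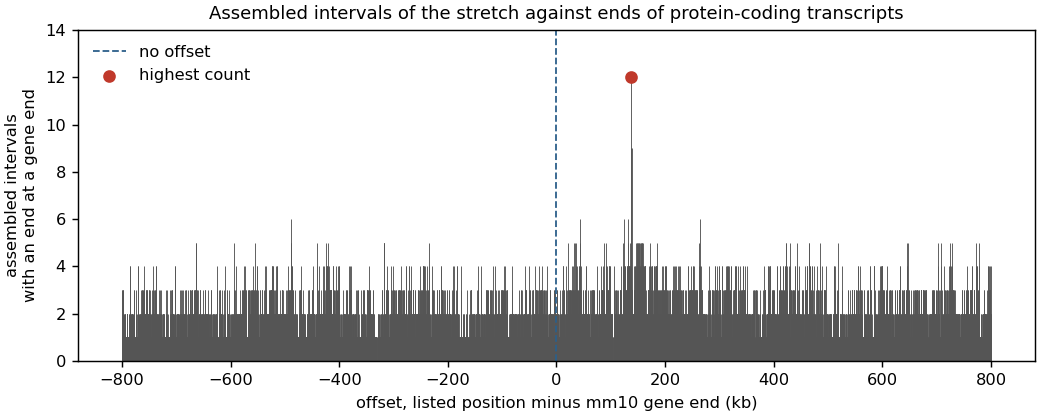
Number of the 23 assembled intervals (y axis) with at least 1 end within 50 bp of a protein-coding transcript end in mm10, by offset between listed and mm10 position in kb (x axis; the highest count in each 100 bp). The count is 0 at no offset (dashed line) and 12 at 138060 bp (red point).

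Displaced by this offset, all 4 features fall on or beside the Oas and Oasl genes. The interval of MSTRG.44237.1 and MSTRG.44237.2 then starts 4 bp before Gm13822, an antisense lncRNA gene between Oasl2 and Oasl1, and its stop minus the gene's far end is -91 bp in RefSeq and -1107 bp in GENCODE. ENSMUST00000201944 falls inside Oasl2, with 1191 of its 1315 bases in exons of Oasl2 transcripts, of which 101 are outside retained-intron transcripts. The interval of NONMMUT119339.1 has 340 bases over the last exon of Oas1b and runs 796 bp past its end. Oas1b is tied to flavivirus resistance and annotated as a polymorphic pseudogene. That interval, of 1136 bp, exceeds the 812 nt of the feature, whose exons are not given. The 340 bases therefore need not be bases of the RNA. For the 2 annotated features this reading holds only if their reads were counted at the listed numbers on another assembly, which was not tested. As a description, of annotated features in the same stretch, members aside, 98 meet a coding exon only when displaced and had a median of 44 reads summed over 6 libraries, while 36 meet one only as listed and had a median of 26. The 47 that meet one at both positions had a median of 20 reads, and the 98 that meet one at neither had a median of 18. In the same order, 27, 8, 7 and 10 of them held at least 100 reads. These counts take a single offset for the whole stretch. They also take whole intervals, since exons of the features are not given, and the reads are not scaled by length. Whether position accounts for the differences in reads was not tested.

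**Figure D2:**
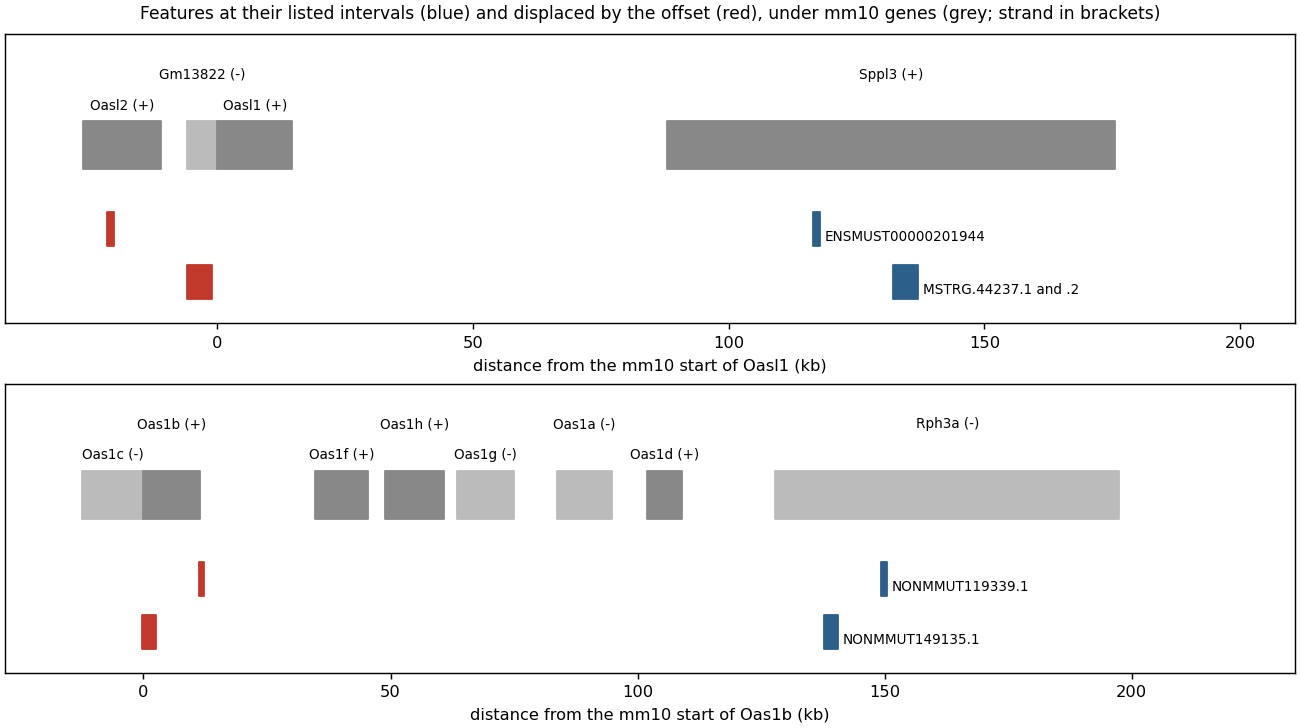
Features at their listed intervals (blue) and displaced by the offset (red), below mm10 genes (dark grey on the plus strand, light grey on the minus strand), by distance in kb from the mm10 start of Oasl1 (top) and of Oas1b (bottom). Listed intervals lie in Sppl3 and Rph3a, and displaced ones at Oasl2, Gm13822 and Oas1b.

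Sequences are shown for the RNAs that the identifiers or the displaced positions name. The first is the last exon of Gm13822 (ENSMUST00000127563, chr5:114917318-114917589, mm10, minus strand, 272 bases), which lies whole inside the displaced interval of MSTRG.44237.1 and MSTRG.44237.2. The second is the first 150 bases of C730045M19Rik (chr5:115039770-115039919, mm10, plus strand), the RNA named by ENSMUST00000201944. No run of 20 bases of C730045M19Rik, on either strand, occurs in any of 42 annotated transcripts of 13 genes (8 Oas1 genes, Oas2, Oas3, Oasl1, Oasl2 and Gm13822).
Gm13822 last exon: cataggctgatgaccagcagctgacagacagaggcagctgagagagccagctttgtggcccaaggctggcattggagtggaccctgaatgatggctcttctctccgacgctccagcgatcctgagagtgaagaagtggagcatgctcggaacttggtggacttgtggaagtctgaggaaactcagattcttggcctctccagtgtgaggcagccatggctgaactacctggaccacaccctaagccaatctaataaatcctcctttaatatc
C730045M19Rik start: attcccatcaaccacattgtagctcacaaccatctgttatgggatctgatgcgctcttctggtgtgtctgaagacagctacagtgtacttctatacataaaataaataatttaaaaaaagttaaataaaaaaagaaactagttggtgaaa

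Upstream sequences of 250 bases (RefSeq, GRCm38.p6, 5′ to 3′) were searched for the core of the interferon-stimulated response element, the site bound by interferon regulatory factors, as GAAA, any 2 bases and GAAA on either strand, with overlaps counted. It was held by 978 of 32851 promoters, a share of 2.98%. Oas1c, whose upstream bases run into the neighbouring start of Oas1b, held 2 overlapping matches (capitals), Oas1a and Oas1g held 2 each and Oas3 held 1. Oas1f, Oas1h, Gm13822, Oasl1, Oasl2, Sppl3 and Rph3a held none in this window. The windows of Gm13822 and Sppl3 precede RefSeq starts and lie inside these genes as annotated in GENCODE. For these genes, bases before the GENCODE start were not searched. Oas1b, Oas1d, Oas1e and Oas2 had no entry.
Oas1c (chr5:120812515-120812764, minus strand): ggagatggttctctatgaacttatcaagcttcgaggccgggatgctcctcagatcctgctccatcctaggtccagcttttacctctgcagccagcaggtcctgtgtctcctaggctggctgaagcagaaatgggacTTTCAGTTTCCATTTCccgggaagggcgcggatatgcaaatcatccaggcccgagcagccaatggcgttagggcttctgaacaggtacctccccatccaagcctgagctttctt
Oasl1 (chr5:114922990-114923239, plus strand): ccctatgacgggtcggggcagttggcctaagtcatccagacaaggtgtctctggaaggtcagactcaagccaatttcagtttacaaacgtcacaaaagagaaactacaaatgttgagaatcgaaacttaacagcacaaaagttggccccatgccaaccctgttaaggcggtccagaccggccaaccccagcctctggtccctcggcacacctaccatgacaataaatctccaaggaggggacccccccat
Gm13822 (chr5:114922262-114922511, minus strand): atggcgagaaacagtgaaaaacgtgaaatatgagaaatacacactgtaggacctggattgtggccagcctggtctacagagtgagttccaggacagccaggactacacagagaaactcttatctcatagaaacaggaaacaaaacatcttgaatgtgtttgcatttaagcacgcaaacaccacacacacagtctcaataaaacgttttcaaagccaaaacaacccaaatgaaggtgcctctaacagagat

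The comparison asked which RNAs differ between cells kept in extract of cement with and without enoxaparin. The 4 features were all lower with enoxaparin, with 189 reads in the LPS_ES_PMMA libraries together and 1180 in the LPS_PMMA libraries. Summed over the 4, they held 20.6, 18.7 and 22.6 CPM (read counts scaled to the library total with TMM factors) in LPS_ES_PMMA 1, 2 and 3, against 190.3, 149.9 and 148.8 CPM in LPS_PMMA 1, 2 and 3. The lowest LPS_PMMA library was above the highest LPS_ES_PMMA library for each of the 4, and 14.6% of all tested features were lower without overlap in this way. In bulk RNA, fewer cells with a transcript and less RNA per cell cannot be told apart.

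ENSMUST00000201944, listed in an Sppl3 intron and in Oasl2 when displaced, showed the largest fall of the 4. It held 3, 1 and 2 reads in LPS_ES_PMMA 1, 2 and 3, against 51, 72 and 71 reads in LPS_PMMA 1, 2 and 3. In FPKM, the authors' values scaled by transcript length and library size, these were 0.507, 0.307 and 0.353 in the LPS_ES_PMMA libraries and 8.66, 13.2 and 13.9 in LPS_PMMA. Each LPS_ES_PMMA library was at or under 3 reads, which equal 0.729 to 1.52 CPM there, while each LPS_PMMA library was well above. The means were 0.636 ± 0.116 CPM in LPS_ES_PMMA and 26.3 ± 1.74 CPM in LPS_PMMA (SD, n = 3 each), a fitted log2 fold change of -5.23 (SE 0.34).

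MSTRG.44237.1, the more abundant of the 2 assembled transcripts that fall on Gm13822 when displaced, held 59, 19 and 42 reads in LPS_ES_PMMA 1, 2 and 3, against 241, 211 and 214 in LPS_PMMA 1, 2 and 3. Its FPKM were 33.1, 19.4 and 24.6 in the LPS_ES_PMMA libraries and 135.9, 128.4 and 139.5 in LPS_PMMA. It had the highest FPKM of the 4 features in every library, and the LPS_PMMA libraries lay close together on this scale. The means were 12.7 ± 2.67 CPM in LPS_ES_PMMA and 92.9 ± 22.3 CPM in LPS_PMMA (SD, n = 3 each), with a log2 fold change of -2.86 (SE 0.31).

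MSTRG.44237.2 has the same listed ends and is 5 nt shorter, so reads of the locus are divided between both transcripts by the authors' counting. It held 6, 9 and 4 reads in LPS_ES_PMMA 1, 2 and 3, against 29, 25 and 35 in LPS_PMMA 1, 2 and 3. Means were 2.46 ± 1.82 CPM in LPS_ES_PMMA and 12.2 ± 2.24 CPM in LPS_PMMA (SD, n = 3 each), with a log2 fold change of -2.41 (SE 0.51). LPS_ES_PMMA 2 stood highest in its group, at 4.56 CPM. Without that library the log2 fold change was -3.06, and without LPS_ES_PMMA 1 it was -2.10.

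The share of the locus' reads given to MSTRG.44237.2 was 9.23%, 32.1% and 8.70% in LPS_ES_PMMA 1, 2 and 3, against 10.7%, 10.6% and 14.1% in LPS_PMMA 1, 2 and 3. For LPS_ES_PMMA 2, with 28 reads at the locus, the 95% Wilson interval was 17.9% to 50.7%. It lay above the intervals of LPS_PMMA 1 and LPS_PMMA 2, the higher of which ends at 15.2%, and overlapped those of the other 3 libraries. Such intervals cover counting error only. Summed to 1 feature, both transcripts had a log2 fold change of -2.79.

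NONMMUT119339.1, listed in Rph3a and at the end of Oas1b when displaced, held 17, 8 and 19 reads in LPS_ES_PMMA 1, 2 and 3, against 66, 73 and 92 in LPS_PMMA 1, 2 and 3. Its FPKM were 4.65, 3.98 and 5.43 in the LPS_ES_PMMA libraries and 18.2, 21.7 and 29.2 in LPS_PMMA. Means were 4.86 ± 1.33 CPM in LPS_ES_PMMA and 31.5 ± 2.40 CPM in LPS_PMMA (SD, n = 3 each), a log2 fold change of -2.68 (SE 0.30). The highest LPS_ES_PMMA library, at 6.40 CPM, stood well below the lowest LPS_PMMA library, at 28.7 CPM.

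**Figure D3:**
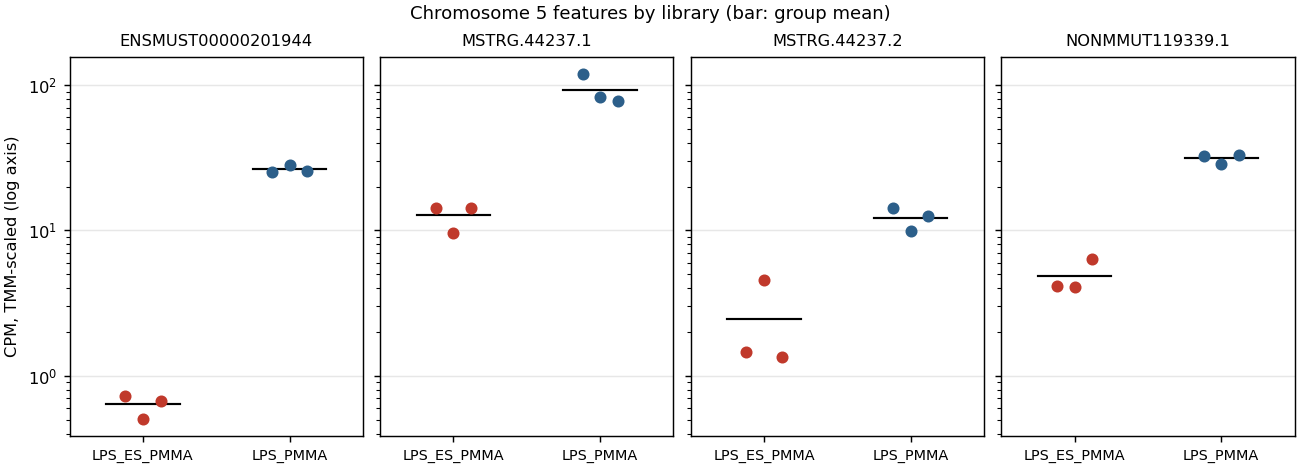
CPM (y axis, log scale) of each feature in the 3 LPS_ES_PMMA libraries (red, left) and the 3 LPS_PMMA libraries (blue, right), with bars at the group means. The groups do not overlap in any panel, and ENSMUST00000201944 is lowest in LPS_ES_PMMA, at 0.507 to 0.729 CPM.

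Ordered by mean FPKM, which is per length, LPS_ES_PMMA libraries had MSTRG.44237.1 at 25.7 ± 6.95, MSTRG.44237.2 at 5.03 ± 3.73, NONMMUT119339.1 at 4.69 ± 0.728 and ENSMUST00000201944 at 0.389 ± 0.105. LPS_PMMA libraries had MSTRG.44237.1 at 134.6 ± 5.64, NONMMUT119339.1 at 23.0 ± 5.67, MSTRG.44237.2 at 18.4 ± 4.15 and ENSMUST00000201944 at 11.9 ± 2.86 (SD, n = 3 each). MSTRG.44237.2 and NONMMUT119339.1 changed places between the groups and did not differ beyond their spread in either. As a share of the LPS_PMMA mean FPKM, LPS_ES_PMMA kept 3.26% for ENSMUST00000201944 and 19.1% to 27.4% for the other 3. In the authors' deposited table their log2 fold changes of mean FPKM are -4.94 for ENSMUST00000201944, -2.39 for MSTRG.44237.1, -1.87 for MSTRG.44237.2 and -2.30 for NONMMUT119339.1.

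Across the table, the quasi-likelihood test of edgeR (Benjamini-Hochberg adjusted) called 422 of 8873 tested features (4.76%), 193 higher and 229 lower (2.58%). The 4 features are among the lower calls, from which nothing is read, since they were chosen on this contrast. Their median log2 fold change was -2.77, beside 0.03 over all features tested. Leaving out any 1 of the 6 libraries left between 50 and 136 calls. MSTRG.44237.2 stayed past the threshold in 1 of these 6 fits, the one without LPS_ES_PMMA 2, and the other 3 features in all 6. Scaling by column totals in place of TMM factors gave 302 higher and 68 lower calls and moved the median of all features to 0.82. Totals implied by FPKM gave 230 higher and 94 lower calls, and limma on log2(FPKM + 0.1) gave 207 and 90. Relative to the median of all features, the 4 features lay between -5.38 and -2.33 under column totals and between -5.26 and -2.44 under TMM.

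The stretch around them was then read, since it shows what else in the table moved there. Within 100 kb of the 4 listed intervals the table holds 11 other features, of which 3 had enough counts to be tested. By edgeR 0 of the 3 passed, 1 had an unadjusted p under 0.05, and DESeq2 called 0. MSTRG.44234.1, in an intron of Sppl3 as listed, held 151, 40 and 84 reads in the LPS_ES_PMMA libraries, against 51, 118 and 103 in the LPS_PMMA libraries. Its log2 fold change of -0.35 (SE 0.34) did not pass (edgeR adjusted p = 0.593) and turned to 0.37 under column totals, 0.07 under totals implied by FPKM and 0.10 in limma on log2(FPKM + 0.1). Its groups overlap, and displaced it falls on no annotated gene. NONMMUT119239.1, inside Sppl3 when displaced, averaged 4.45 ± 1.00 CPM in LPS_ES_PMMA and 5.42 ± 1.74 CPM in LPS_PMMA (SD, n = 3 each), and did not pass either (edgeR adjusted p = 0.733). Its log2 fold change of -0.28 turned to 0.45, 0.14 and 0.18 in the same order of settings.

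The third tested feature was NONMMUT149135.1 (120950319 to 120953200, 1083 nt). Its whole interval, when displaced, reaches from the start of Oas1c (81 exon bases) over the first exons of Oas1b (675 exon bases). The feature held 0, 11 and 0 reads in LPS_ES_PMMA 1, 2 and 3, against 53, 56 and 53 in LPS_PMMA 1, 2 and 3. Its log2 fold change of -3.93 (SE 1.09) did not pass (edgeR adjusted p = 0.0874), and over 16 alternatives its adjusted p from edgeR, DESeq2 or limma lay between 0.0109 and 0.356. It passed without LPS_ES_PMMA 2, where the LPS_ES_PMMA libraries left hold no reads (edgeR adjusted p = 0.0109), and in limma on log2(FPKM + 1) (limma adjusted p = 0.0292).

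NONMMUT149133.1 overlaps it and starts 4 bp before it and held 22, 0 and 14 reads in LPS_ES_PMMA 1, 2 and 3, against 0 in each LPS_PMMA library. It is thus the mirror image of NONMMUT149135.1, with reads in just the LPS_ES_PMMA libraries where the other has none. NONMMUT149134.1 held 1, 0 and 0 reads in the LPS_ES_PMMA libraries, against 3, 2 and 2 in the LPS_PMMA libraries. With NONMMUT119338.1, which spans them, the 4 overlapping features together held 24, 11 and 15 reads in LPS_ES_PMMA, against 56, 59 and 56 in LPS_PMMA. The sum was 5.49 ± 0.395 CPM in LPS_ES_PMMA and 23.7 ± 3.67 CPM in LPS_PMMA (SD, n = 3 each), a log2 ratio of -2.11. This sum was formed after the values were seen and has no test. Its groups do not overlap, and its libraries are even within each group. NONMMUT149133.1 and NONMMUT149135.1 alone are uneven within LPS_ES_PMMA.

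**Figure D4:**
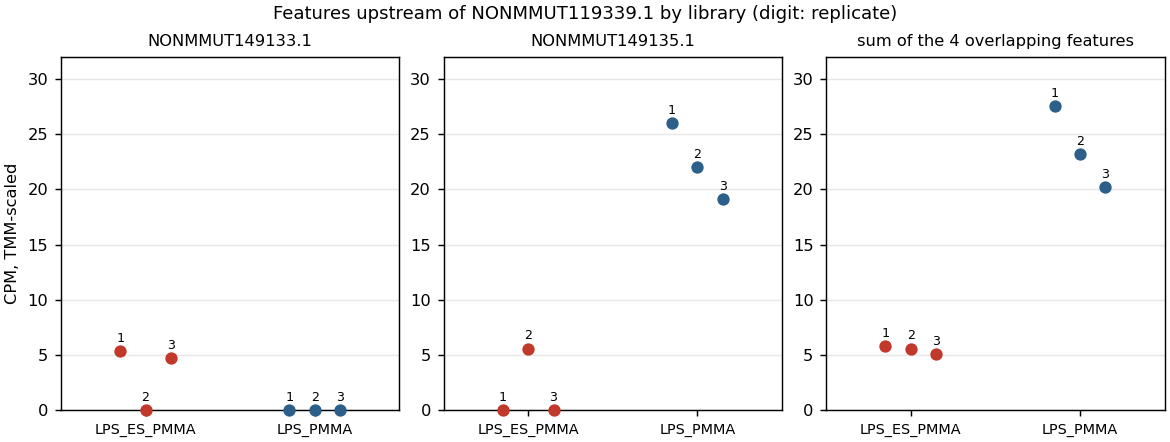
CPM (y axis) of NONMMUT149133.1, NONMMUT149135.1 and the sum of the 4 features that overlap there, in LPS_ES_PMMA libraries (red, left) and LPS_PMMA libraries (blue, right), numbered by replicate. The single features are at 0 in some libraries, and the sum lies between 5.05 and 5.83 CPM in LPS_ES_PMMA and between 20.2 and 27.5 CPM in LPS_PMMA.

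At the mm10 positions of the Oas genes themselves the table holds little. Of 14 OAS and RNase L genes, Oas2 and Pde12 (a phosphodiesterase that degrades the adenosine chains) have features, 3 in all, tied through the gene column or overlap in mm10, and 0 had enough counts to be tested. The Oas2 features ENSMUST00000201095 and NONMMUT054266.2 held at most 4 reads in any library. NONMMUT020102.2, tied to Pde12, held 9, 6 and 5 reads in the LPS_ES_PMMA libraries, against 4, 10 and 5 in the LPS_PMMA libraries.

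Of 14 features tied in the same way, as listed, to interferon signalling and response genes, 4 were tested, 1 was higher, 0 were lower and 3 did not pass. NONMMUT150657.1, tied to Usp18 (the protease that removes ISG15), held 90, 35 and 60 reads in the LPS_ES_PMMA libraries, against 7, 13 and 16 in the LPS_PMMA libraries. It rose, with a log2 fold change of 2.04 (SE 0.30; edgeR adjusted p = 0.0159), opposite in direction to the 4 features. The call was lost without LPS_ES_PMMA 1, LPS_ES_PMMA 3, LPS_PMMA 2 or LPS_PMMA 3, with adjusted p from 16 alternatives between 0.00165 and 0.0893. Features tied to Mavs, Stat2 and Ifnar1 had log2 fold changes of 0.48, 0.32 and 0.27 (edgeR adjusted p = 0.344, 0.622 and 0.577). The median of the 4 was 0.40, beside 0.03 over all features. Whether the listed positions of these features are displaced was not tested.

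Outside the stretch, the features whose pattern over the 6 libraries was most like the mean of the 4 were found by the root mean square difference of centred log2(CPM + 1). The closest was NONMMUT056500.2 (chromosome 6, 39063877 to 39066094), tied to Tbxas1 by the table, at 0.0825. It held 171, 95 and 146 reads in LPS_ES_PMMA, against 706, 700 and 841 in LPS_PMMA. Next were NONMMUT148390.1 at 0.155, NONMMUT117699.1 at 0.167, NONMMUT085775.1 at 0.179 and NONMMUT117700.1 at 0.187. NONMMUT148390.1 (chromosome 4, 156203263 to 156210998), tied to AW011738, had a log2 fold change of -3.47. As listed, it lies near the feature tied to Isg15 (156197997 to 156199383), which had too few counts to be tested. That feature held 7, 2 and 16 reads in the LPS_ES_PMMA libraries, against 0, 2 and 0 in the LPS_PMMA libraries. Untested interferon features went both ways. The one tied to Ddx58 held 0, 0 and 0 reads in the LPS_ES_PMMA libraries, against 5, 1 and 2 in the LPS_PMMA libraries. For scale, MSTRG.44237.1 and NONMMUT119339.1 lay at 0.235 and 0.252 from the mean of the 4, MSTRG.44237.2 and ENSMUST00000201944 at 0.562 and 0.629, and the median of all tested features was 1.51.

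**Figure D5:**
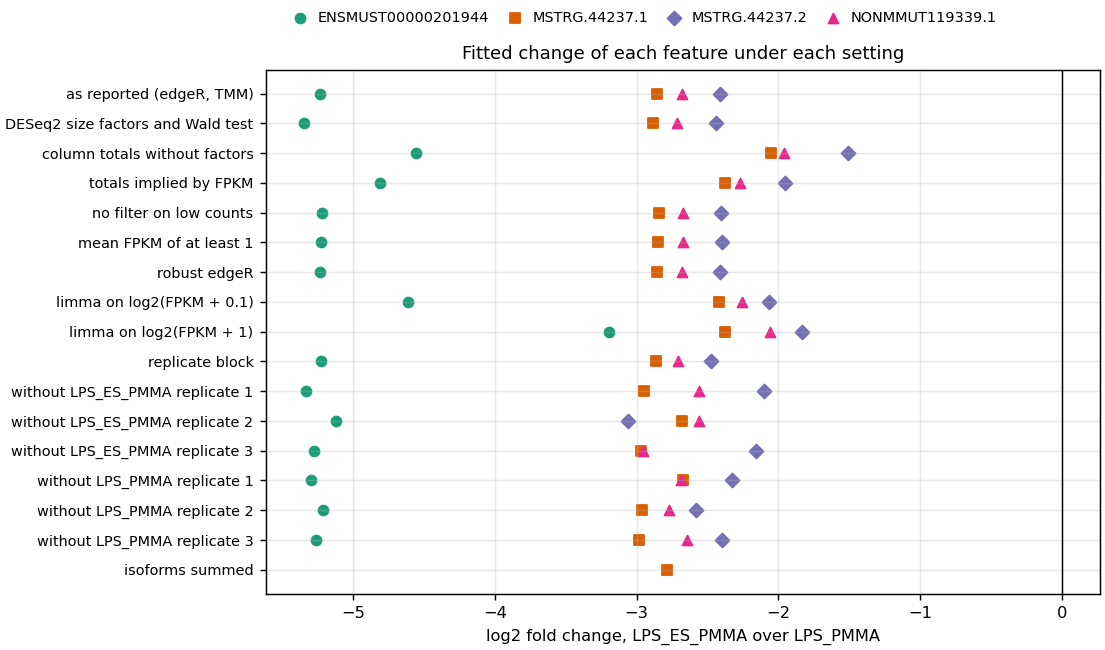
Fitted log2 fold change, LPS_ES_PMMA over LPS_PMMA (x axis), of each feature under each setting (y axis). Every value is below 0, between -5.35 and -3.20 for ENSMUST00000201944 and between -3.06 and -1.51 for the other 3.

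Over the whole table, column totals were 1123551 to 3261653 reads in LPS_ES_PMMA and 2877523 to 3697638 reads in LPS_PMMA, and TMM factors ran from 0.983 to 1.82 in LPS_ES_PMMA and from 0.559 to 0.977 in LPS_PMMA. The table lists lncRNAs, so the macrophage label could not be checked on marker genes themselves. Of 10 macrophage genes 2 had tied features, 3 in all, whose summed level was 38.5 to 49.9 CPM in the LPS_ES_PMMA libraries and 52.4 to 64.9 CPM in LPS_PMMA. Of these features 2 were tested, 0 passed in either direction, and their median log2 fold change was 0.33. The sum and this median went in opposite directions, so the sum does not stand for each macrophage feature. Of 13 genes of other cell types 2 had tied features, 3 in all, at 0.507 to 2.36 CPM in LPS_ES_PMMA and 0.361 to 0.983 CPM in LPS_PMMA. Their part in the results was not tested.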

How the data were processed

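RNA of 3 LPS_ES_PMMA and 3 LPS_PMMA libraries was made with an RNeasy and a SMARTER mRNA kit, per the labels' protocols. The deposited table gives whole-number read counts and FPKM per transcript, and group mean FPKM, per the file headers. It also gives the authors' log2 fold change of mean FPKM and p-value and q-value, from edgeR per the table's name. The submitters' processing notes name mm10, with aligner and counter not given in the sources used here. All numeric columns were assigned, with 0 left over.

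The members and lists were chosen with earlier results of these data known. Counts were filtered with filterByExpr (minimum count 10, minimum total 15), scaled by TMM, and compared with the edgeR 4.0.16 quasi-likelihood test in R 4.3.3, without covariates, with Benjamini-Hochberg adjustment over 8873 features and a threshold of 0.05. Each SE was taken as the size of the log2 fold change divided by the root of its F statistic and is approximate. limma 3.58.1 and DESeq2 1.42.0 were alternatives. The code was tested on simulated data. Replicates of a group differed by more than sampling noise (chi-square per degree of freedom 15.4 to 45.5). Named features are the 4 members, tested features within 100 kb, called interferon features, and the 5 nearest patterns. The 3 untested features beside NONMMUT149135.1, the 3 untested OAS and RNase L features and the 3 interferon features that did not pass were named after their values were seen. So were the untested features tied to Isg15 and Ddx58. The planned check against GRCm39 was not run. The offset and the sum of overlapping features were added after the data were seen.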

Additional observations from a re-analysis of the deposited data

How the results depend on the processing

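The direction of each of the 4 features held in all alternatives run, while both tested neighbours near Sppl3 turned sign under column totals, totals implied by FPKM and limma. ENSMUST00000201944 had log2 fold changes of -4.56 under column totals, -4.81 under totals implied by FPKM, -4.61 in limma on log2(FPKM + 0.1) and -3.20 in limma on log2(FPKM + 1), a scale that understates low features. MSTRG.44237.1 had -2.05 under column totals, -2.38 under totals implied by FPKM and -2.38 in limma on log2(FPKM + 1), and NONMMUT119339.1 had -1.96, -2.27 and -2.06, and -2.26 in limma on log2(FPKM + 0.1). MSTRG.44237.2 had -1.51 under column totals, -1.96 under totals implied by FPKM and -2.07 in limma on log2(FPKM + 0.1), with its call lost in each, and -1.83 in limma on log2(FPKM + 1). Leaving out a library gave -5.33 to -5.12 for ENSMUST00000201944, -2.99 to -2.68 for MSTRG.44237.1, -3.06 to -2.10 for MSTRG.44237.2 and -2.96 to -2.56 for NONMMUT119339.1. MSTRG.44237.2 was past the threshold in 4 of 15 alternatives, the other 3 features in 15 of 15. Over the whole table, 174 features were called with no filter on low counts and 200 with a mean FPKM of at least 1, where more features are tested, and 50 to 136 without a library. With a replicate block 41 were called, 3 of the 4 features still among them. Same-numbered libraries did not deviate together (correlations -0.09 to -0.02). This cannot tell whether they were prepared as pairs, which the labels do not state. The block also left 0 calls among interferon features. Of features within 100 kb, 1 passed in limma on log2(FPKM + 1) and 0 to 1 without a library. Of interferon features, 0 to 1 passed without a library. The cause of these changes was not tested. With windows of 50 and 250 kb edgeR and DESeq2 called 0 of 2 and 0 of 12 features, with 1 and 2 at an unadjusted p under 0.05. With 1 to 3 reads per LPS_ES_PMMA library, the size of the fall of ENSMUST00000201944 is set by few reads.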
